A study of Homo sapiens with 6 samples.

Results

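The cytosolic ribosome is built from ribosomal RNA and a set of ribosomal proteins, nearly all present in a single copy, and the genes for these proteins were examined in NK92 cells after knockdown of the lncRNA gene miR155HG. Members were all genes of the count table with a symbol made of RPL or RPS and a number, with or without a closing A or X, together with RPLP0, RPLP1, RPLP2 and RPSA, and with more than 1 CPM (counts scaled to the size of the library) in at least 2 of the 6 libraries. All 77 genes with such a symbol passed this filter, 46 of the large and 31 of the small subunit, among 12263 genes tested and 36601 genes in the table. The rule used the symbol and the level, and not the difference between the groups.

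NK92 is a cell line from a human NK cell lymphoma that depends on IL-2. Both groups were NK92 lines that carried an shRNA, a control sequence in shCtrl cells and one that targets miR155HG in shmiR155HG cells. For replicates 2 and 3 of shmiR155HG, the label of the treatment gives the target with a different number than the title does, and the title was used. Before poly(A) RNA was sequenced, both had been kept for 12 h in IL-2 at 1000 U/mL together with IL-12 at 10 ng/mL. Each group had 3 libraries of 33454786 to 39157264 counts, and nothing in the labels states whether they came from separate cultures, so that p-values measure the spread between these libraries. Whether the lines were clones or pools is not given in the sources used here, and a difference between the lines cannot be told apart from an effect of the shRNA. The target MIR155HG had 73, 67 and 62 counts in the 3 shCtrl libraries and 28, 19 and 10 counts in the shmiR155HG libraries, with a log2 fold change of −1.78 (with SE 0.43 and adjusted p = 0.00450 by edgeR's quasi-likelihood test). Of 8 NK cell markers, 7 were above 1 CPM in at least 2 libraries, with a summed level of 1786 to 1844 CPM in shCtrl and 1767 to 1817 CPM in shmiR155HG, and CD7 lay below that limit. Of the 7, KLRC1 rose (log2 fold change 0.17) and PRF1 (−0.20) and NCR3 (−0.24) fell at an adjusted p under 0.05. They were 42.9% of the 7, against 15.3% of all genes tested. Of 14 markers of other blood, epithelial and stromal cells, 1 was above 1 CPM in at least 2 libraries, at 2.60 to 5.57 CPM. Another 3 were at 0 in every library. The summed level of the 14 was 5.20 to 6.90 CPM in shCtrl and 4.16 to 6.71 CPM in shmiR155HG.

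The small subunit reads the mRNA, and the large subunit joins the amino acids and releases the chain through an exit tunnel. Ribosomal protein mRNAs are among the most abundant mRNAs of growing cells, and nearly all begin with a C followed by a run of pyrimidines, the 5′ terminal oligopyrimidine (5′TOP) motif. Through this motif LARP1 and the kinase mTORC1 set how much of these mRNAs is translated and how stable they are. Cytokine-activated lymphocytes make more ribosomes as they begin to grow and divide.

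The start of the transcript was read from the RefSeq promoter sequences of GRCh38.p14, in which 62 of the 77 genes were matched by symbol. The motif searched was C on the gene's strand at the annotated start, followed by at least 4 bases that are each C or T. The following windows show it in the genes with a lower level in shmiR155HG that were matched, in RPL28 with the largest positive difference, and in the abundant members RPLP0 and RPS18. RPL17 and EEF1A1 stand for a member without the run within 5 bases of the annotated start and for a 5′TOP mRNA outside the family. Each window holds 15 bases before the start and 15 bases from it, 5′ to 3′, with the pyrimidine run in capitals.
RPL12 (chr9:127451392-127451421, minus strand): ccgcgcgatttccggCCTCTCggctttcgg
RPL21 (chr13:27251543-27251572, plus strand): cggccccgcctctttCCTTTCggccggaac
RPS3A (chr4:151099613-151099642, plus strand): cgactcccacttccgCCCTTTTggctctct
RPL28 (chr19:55385917-55385946, plus strand): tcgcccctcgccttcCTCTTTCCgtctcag
RPLP0 (chr12:120201097-120201126, minus strand): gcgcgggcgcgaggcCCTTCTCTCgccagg
RPS18 (chr6:33272060-33272089, plus strand): cgcgtcacttccgctCTCTCTTCCacagga
RPL17 (chr18:49492451-49492480, minus strand): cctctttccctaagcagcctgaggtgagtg
EEF1A1 (chr6:73521018-73521047, minus strand): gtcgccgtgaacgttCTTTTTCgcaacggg

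The pyrimidine run began at the annotated start in 46 of the 62 genes (74.2%), and in 1404 of all 27305 genes with a promoter window (5.14%). With a start up to 5 bases away it was found in 53 of 62 genes (85.5%), against 25.2% of all genes. Among mitochondrial ribosomal protein genes, which are built into another ribosome, it stood at the start in 6 of 69 (8.70%), and among nuclear genes of the respiratory chain in 7 of 64 (10.9%). It also stood there in 9 of 11 other genes listed as 5′TOP mRNAs (81.8%). Among ribosomal protein genes outside the symbol rule it did so in 4 of 9 (44.4%). Most matched members therefore shared a feature of the mRNA start that the rule had not used and that was not particular to the family. A match is a description of these letters, and the annotated start may differ from the start used in NK92 cells.

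Ribosomal protein mRNAs differed little between shCtrl and shmiR155HG cells. No member rose and 4 of 77 (5.19%) fell at an adjusted p under 0.05 by edgeR's quasi-likelihood test, whereas 7.26% of all genes tested rose, 8.02% fell and 15.3% changed in either direction. Among the 6680 genes with a mean level at or above that of the lowest member, 21.5% changed. The members that fell were RPL12, RPL21 and RPL23 of the large subunit and RPS3A of the small subunit, each by a log2 difference between 0.10 and 0.15. At an unadjusted p under 0.05 there were 15 members (19.5%), against 27.3% of all genes, 12 with a lower and 3 with a higher level in shmiR155HG. DESeq2 and limma-voom each gave 6 members that fell and 0 that rose (7.79%), against 16.4% and 15.1% of all genes called in those fits.

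By the rule of the study, an exact test in edgeR at an unadjusted P under 0.01 with a fold change over 1.2, no member changed, against 8.29% of all genes. With all 6 libraries no member reached a 1.2-fold difference, and without shCtrl replicate 3 there were 4 beyond it in the lower direction (RPS21, RPS27, RPL39 and RPL38). In bulk RNA, fewer cells with an mRNA and less of it per cell cannot be told apart, and a change of total RNA per cell is not seen in CPM. The log2 fold change (shmiR155HG over shCtrl) lay between −0.20 for RPS21 and 0.11 for RPL28, with a median of −0.03 over the 77 genes and of 0.00 over all genes tested. It was negative for 52 and positive for 25 members. The median was −0.03 for the large and −0.02 for the small subunit.

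The precision was high for most of the family. The 95% interval of the fold change lay wholly inside 1.2-fold in either direction for 64 of 77 members (83.1%), against 69.6% of the genes at or above the lowest member's level. Those genes were cut at that level only and not matched in level to the family, and the part of level in this difference was not tested. For 37 members it lay inside a 10% difference. The other 13 had an interval that reached beyond 1.2-fold, and they were RPL24, RPL27, RPL37, RPL37A, RPL38, RPL39, RPL41, RPS12, RPS18, RPS21, RPS27, RPS27A and RPS29. For these 13 the replication did not exclude a 1.2-fold difference.

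**Figure D1:**
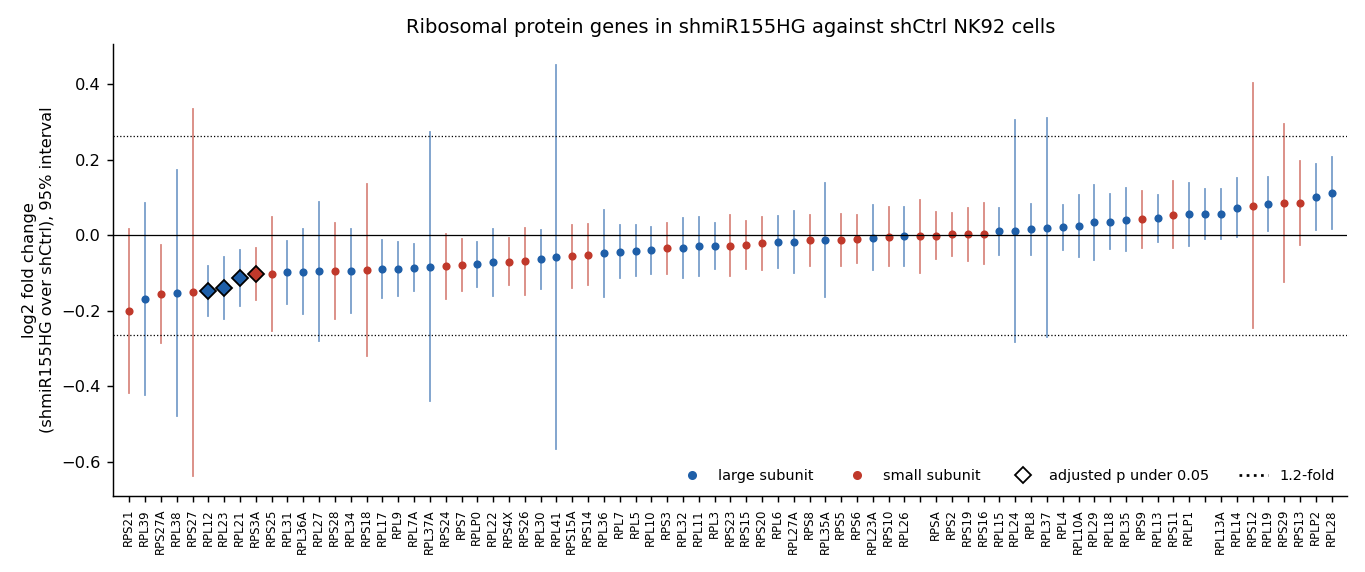
Log2 fold change (shmiR155HG over shCtrl, vertical axis) of the 77 ribosomal protein genes, ordered by value and named along the horizontal axis except where a gene is not reported, with blue for the large and red for the small subunit, vertical lines for the 95% interval and diamonds for an adjusted p under 0.05. The values run from −0.20 (RPS21) to 0.11 (RPL28), the 4 diamonds are all below 0, and 64 intervals stay between the dotted lines at 1.2-fold.

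**Figure D2:**
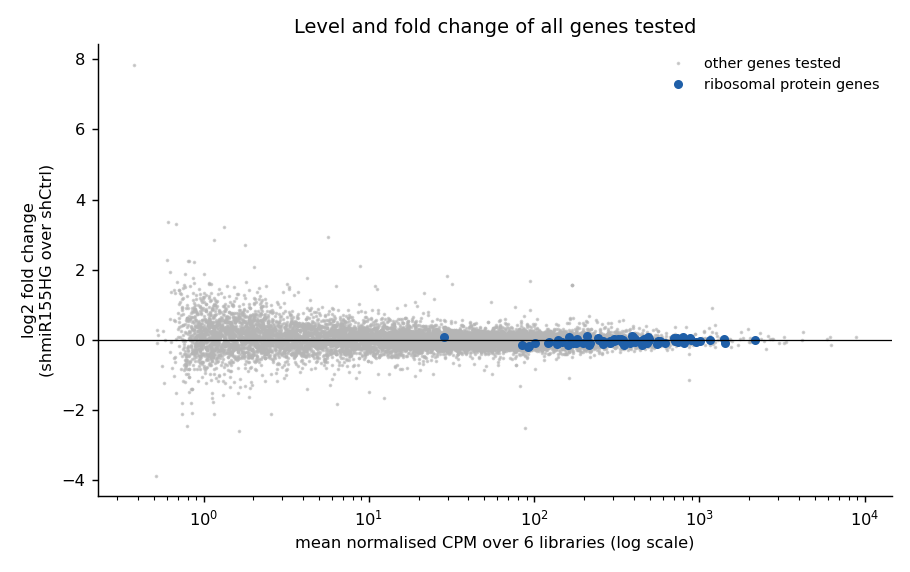
Mean normalised CPM over 6 libraries (horizontal axis, log scale) and log2 fold change (vertical axis) of the 12263 genes tested, with ribosomal protein genes in blue and other genes in grey. The members lie between 28.3 and 2178 CPM and form a narrow band around 0.

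RPL12 binds at the base of the P stalk, where elongation factors dock on the large subunit (ENSG00000197958, hg38 chr9:127447674-127451406, minus strand, 7 exons). Its normalised level was 470, 482 and 469 CPM in shCtrl replicates 1, 2 and 3 and 427, 424 and 432 CPM in shmiR155HG replicates 1, 2 and 3. Every shmiR155HG library lay below every shCtrl library, with a gap wider than the spread within either group. The level was 474 ± 7.40 CPM (SD, n = 3) in shCtrl and 428 ± 4.36 CPM (SD, n = 3) in shmiR155HG, and the log2 fold change was −0.15 (with SE 0.03 and adjusted p = 0.00186 by edgeR's quasi-likelihood test). RPL12 was the only member that stayed past the threshold with each of the 6 libraries left out in turn, while RPL21 lost its call in 5, RPL23 in 4 and RPS3A in 4 of these 6 fits.

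RPL21 is a protein of the large subunit (ENSG00000122026, hg38 chr13:27251362-27256691, plus strand, 6 exons). Its level was 273, 270 and 276 CPM in the shCtrl libraries and 259, 247 and 251 CPM in the shmiR155HG libraries. The groups did not overlap, and their means were 273 ± 3.05 and 252 ± 6.37 CPM (SD, n = 3). The log2 fold change was −0.11 (with SE 0.04 and adjusted p = 0.0342, edgeR's quasi-likelihood test).

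RPS3A is a small-subunit protein near the exit of the mRNA channel (ENSG00000145425, hg38 chr4:151099624-151104642, plus strand, 6 exons). Its level was 591, 567 and 557 CPM in the shCtrl libraries and 520, 527 and 552 CPM in the shmiR155HG libraries. The highest shmiR155HG library lay just below the lowest shCtrl library. The log2 fold change was −0.10 (with SE 0.03 and adjusted p = 0.0393, edgeR's quasi-likelihood test). The annotated gene overlaps SH3D19 on the other strand, and reads of the overlap cannot be assigned without strand.

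RPL23 is a large-subunit protein at the interface of the subunits that can also bind the p53 regulator MDM2 (ENSG00000125691, hg38 chr17:38847860-38853764, minus strand, 5 exons). Its level was 377, 382 and 337 CPM in the shCtrl libraries and 330, 340 and 326 CPM in the shmiR155HG libraries. shCtrl replicate 3 lay within the range of the shmiR155HG libraries, so that the groups overlapped. The log2 fold change was −0.14 (with SE 0.04 and adjusted p = 0.0179, edgeR's quasi-likelihood test).

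Groups without any overlap were found for 12 members. RPL13 was among 2 of 77 members with all shmiR155HG libraries above all shCtrl libraries, against 15.2% of all genes tested. RPL7A, RPL10, RPL12, RPL21, RPL31, RPLP0, RPS3A, RPS4X, RPS7 and RPS15 had all of them below, 10 of 77 against 15.6% of all genes tested. Among these 10, RPS15 differed least, with 561, 569 and 569 CPM in shCtrl and 558, 555 and 558 CPM in shmiR155HG.

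**Figure D3:**
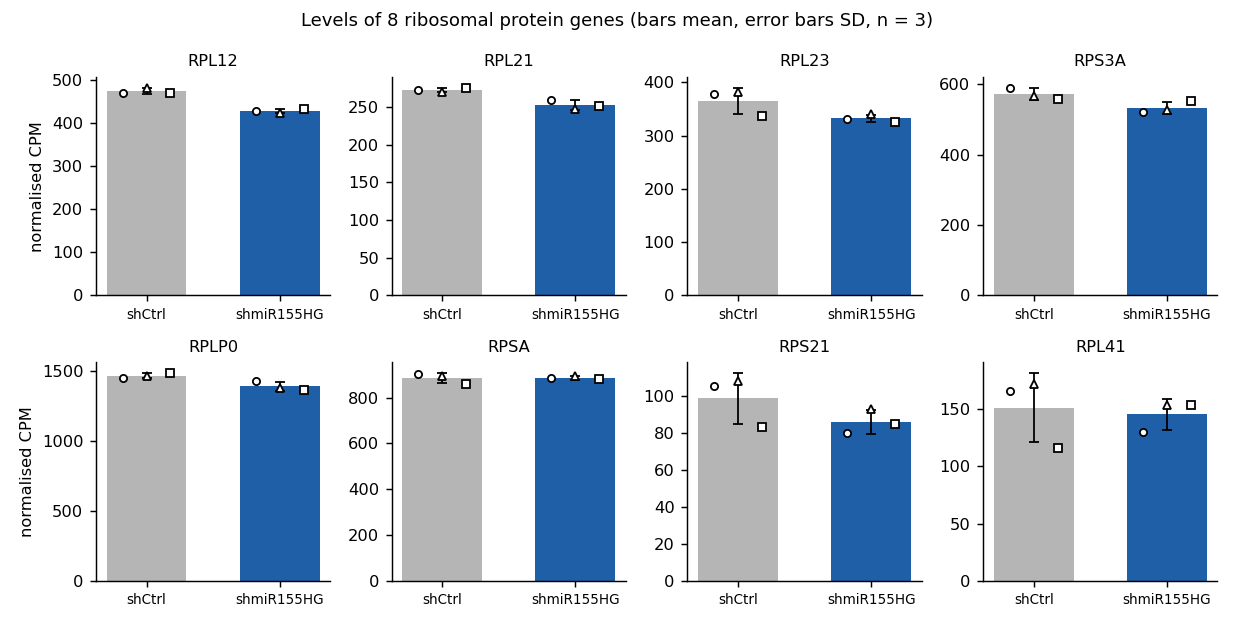
Normalised CPM (vertical axis, from 0) of RPL12, RPL21, RPL23, RPS3A, RPLP0, RPSA, RPS21 and RPL41 in shCtrl (grey) and shmiR155HG (blue) libraries, with bars for the mean, error bars for the SD (n = 3) and circles, triangles and squares for replicates 1, 2 and 3. RPL12 and RPL21 are separated between groups, RPSA has nearly the same mean in both, and for RPS21 and RPL41 the square of shCtrl replicate 3 stands well below the other shCtrl libraries.

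The P stalk is formed by RPLP0, which carries the acidic proteins RPLP1 and RPLP2 and sits beside RPL12. RPLP0 was at 1447, 1459 and 1484 CPM in shCtrl and 1426, 1375 and 1361 CPM in shmiR155HG, without overlap, with a log2 fold change of −0.08 (with SE 0.03 and adjusted p = 0.0766 by the quasi-likelihood test). RPLP1 was at 895, 896 and 808 CPM in shCtrl and 859, 946 and 896 CPM in shmiR155HG, with a log2 fold change of 0.06 (SE 0.04). RPLP2 was at 211, 207 and 190 CPM in shCtrl and 220, 224 and 208 CPM in shmiR155HG, with a log2 fold change of 0.10 (with SE 0.04 and adjusted p = 0.114 by the quasi-likelihood test). Of the 4 stalk genes only RPL12 passed the threshold.

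RPL5 and RPL11, which form the 5S particle that binds MDM2 when ribosome assembly is disturbed, had log2 fold changes of −0.04 (SE 0.03) and −0.03 (SE 0.04), with both intervals inside 1.2-fold. The 9 members that line or surround the exit of the peptide tunnel had a median log2 fold change of −0.01, from −0.17 for RPL39 to 0.08 for RPL19, and none passed the threshold (3 at an unadjusted p under 0.05). The 8 members listed for the mRNA channel had a median of −0.03, from −0.09 for RPS28 to 0.00 for RPS2. All 8 intervals lay inside 1.2-fold. RPS3A, near the exit of that channel and lower in shmiR155HG (−0.10), was not on this list. The 19 members in which mutations cause Diamond-Blackfan anemia, a failure of red cell production, had a median of −0.03, with 14 negative and 5 positive values and none past the threshold (2 at an unadjusted p under 0.05). These groupings were set up with the fold changes known and are given as description.

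Among the members with the smallest differences were RPSA and RPL26, each with a log2 fold change of 0.00. RPSA, a small-subunit protein that is also known as the laminin receptor, was at 904, 893 and 861 CPM in shCtrl and 884, 894 and 879 CPM in shmiR155HG. Its 95% interval ran from −0.06 to 0.06. The sign of these values changed with the scaling or with the library left out.

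Levels differed far more between members than between groups. Over the whole table of members the Spearman correlation of the level in shCtrl and shmiR155HG was 0.997 (77 genes, which share libraries). RPS2, at the entry of the mRNA channel, was the most abundant member, with 2153, 2184 and 2193 CPM in shCtrl and 2190, 2146 and 2206 CPM in shmiR155HG. RPS29 was the least abundant, with 29.97, 30.5 and 22.1 CPM in shCtrl and 28.2, 29.2 and 30.1 CPM in shmiR155HG.

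Per length, the genes were closer together. The coding lengths ran from 75 nt in RPL41 to 1281 nt in RPL4, with a median of 456 nt. Divided by the coding length in kb, the mean level in shCtrl had a median of 767 CPM per kb, with 68 of 77 members within 2-fold of it and a 15.5-fold range. RPLP1 with 2533, RPS2 with 2476 and RPL41 with 2019 CPM per kb of coding length were the highest, and RPS29 with 164, RPL34 with 296 and RPS13 with 347 CPM per kb were the lowest. Coding length was used because the annotated canonical transcript was over 3 times the coding length for 22 members. By exon length of that transcript, RPS2, RPLP0 and RPS18 ranked highest and RPL37, RPL37A and RPL27A lowest.

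RPS18 had 683, 683 and 561 CPM in shCtrl and 584, 623 and 601 CPM in shmiR155HG. RPL37A was at 197, 184 and 149 CPM in shCtrl and 151, 176 and 174 CPM in shmiR155HG. RPL37 was at 202, 187 and 153 CPM in shCtrl and 177, 193 and 180 CPM in shmiR155HG. RPL27A was at 263, 277 and 253 CPM in shCtrl and 250, 266 and 269 CPM in shmiR155HG. In all 4 the groups overlapped, and in each the lowest shCtrl library was replicate 3.

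That library stood apart for the family as a whole. For 64 of 77 members shCtrl replicate 3 was below both other shCtrl libraries, as it was for 35.4% of all genes tested. It was the lowest of all 6 libraries for 37 members, and for 17.3% of all genes tested. The summed level of the 77 genes was 36846, 36928 and 34699 CPM in shCtrl replicates 1, 2 and 3 and 35448, 35639 and 35907 CPM in shmiR155HG replicates 1, 2 and 3. The shmiR155HG libraries fell between shCtrl replicate 3 and the other two shCtrl libraries. The means were 36158 ± 1264 and 35665 ± 231 CPM (SD, n = 3), a log2 ratio of −0.02 that was smaller than the spread in shCtrl. The family took 3.69%, 3.68% and 3.45% of all counts in the shCtrl libraries and 3.53%, 3.57% and 3.59% in the shmiR155HG libraries. The 95% Wilson interval ran from 3.45% to 3.46% for shCtrl replicate 3 and from 3.68% to 3.69% for shCtrl replicate 1, and such intervals cover counting error only.

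The ratio of the subunits moved little. Counts of large-subunit genes were 1.46 times those of small-subunit genes in each of the 3 shCtrl libraries, and 1.47, 1.47 and 1.48 times in the shmiR155HG libraries. The means were 1.462 ± 0.00054 and 1.473 ± 0.0076 (SD, n = 3), a difference of 0.78%, and every shmiR155HG library lay above every shCtrl library. In shCtrl replicate 3 both subunits were therefore low together, with 20601 CPM against 21879 and 21932 CPM for the large subunit and 14097 CPM against 14968 and 14997 CPM for the small subunit.

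The deviation of shCtrl replicate 3 went with length. Relative to each gene's mean over the 6 libraries, its median deviation was −0.11 (log2) for the 38 members with a coding length under the median and −0.04 for the other members. Other genes with a coding length under 600 nt (754 genes) deviated by a median of −0.03 in this library, and other genes of at least 1500 nt (3151 genes) by 0.02. Nuclear genes of the respiratory chain deviated by −0.05, mitochondrial ribosomal protein genes by −0.03 and other 5′TOP mRNAs by 0.00. The part of length in the result was not tested beyond 1 setting, with length and GC content of the annotated canonical transcript as an offset. It left RPL12 past the threshold, took RPL21, RPL23 and RPS3A below it and brought RPL7A, RPLP0 and RPS21 past it. The count of members that fell was again 4. Length and GC content were not separated in this setting. The transcript length in the offset differs from the coding length used above, with 2706 nt against 420 nt for RPL23. It was over 3 times the coding length for 22 members.

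**Figure D4:**
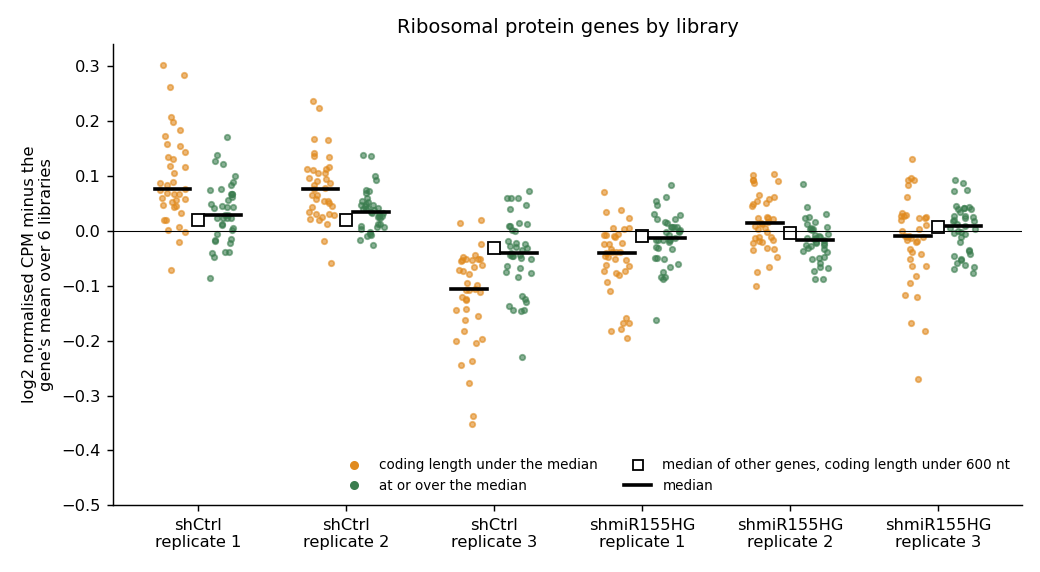
Deviation of each ribosomal protein gene from its own mean over 6 libraries (log2 normalised CPM, vertical axis) in each library, with orange for members under the median coding length, green for the others, black lines for medians and open squares for the median of other genes under 600 nt. In shCtrl replicate 3 the orange points have a median of −0.11 and the green points of −0.04, below the medians of all other libraries.

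The spread between replicates followed the same line. The coefficient of variation (CV) over the 3 libraries was larger in shCtrl than in shmiR155HG for 65 of 77 members. It was over 10% for 13 members in shCtrl and for 1 member, RPS27, in shmiR155HG. Members under the median coding length had a median CV of 6.78% in shCtrl and 3.87% in shmiR155HG, and the longer members 3.48% and 1.91%. Over the 77 genes the Spearman correlation of coding length and CV was −0.73 in shCtrl and −0.60 in shmiR155HG, a description over genes that share the same libraries. RPL41, with the shortest coding sequence, had a CV of 20.1% in shCtrl, from 166, 172 and 117 CPM in replicates 1, 2 and 3, and was at 130, 153 and 154 CPM in shmiR155HG.

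Without shCtrl replicate 3, 21 of 77 members (27.3%) fell at an adjusted p under 0.05 and none rose, against 7.53% of all genes and 11.5% of the genes at or above the lowest member's level that fell in the same fit. In either direction 14.8% of all genes and 21.8% of the genes at that level changed in it. All 6 libraries gave 4 members, so this library decides how many members fell. It was singled out because the members themselves were low in it, and leaving it out raises the shCtrl level of those members. The p-values and calls of this fit are therefore description and no separate evidence of a fall. The 21 were RPL7, RPL9, RPL12, RPL17, RPL22, RPL23, RPL27, RPL31, RPL36A, RPL37A, RPL38, RPL39 and RPL41 of the large subunit and RPS3A, RPS14, RPS18, RPS21, RPS24, RPS25, RPS27A and RPS28 of the small subunit. RPL21 was no longer among them. Their log2 fold changes in that fit ran from −0.31 for RPS21 (RPL39 and RPL38 at −0.28 also beyond 1.2-fold) to −0.08 for RPL7. The median over the 77 members was −0.06, with 59 negative and 18 positive values. Nuclear genes of the respiratory chain also had a median of −0.06 in that fit, with 50 negative and 24 positive values. Mitochondrial ribosomal protein genes had a median of −0.01 and other 5′TOP mRNAs of −0.02.

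RPS21, a short protein of the small subunit, showed the largest difference in either fit. Its level was 105, 108 and 82.9 CPM in shCtrl and 80.0, 93.0 and 84.5 CPM in shmiR155HG. The log2 fold change was −0.20 (with SE 0.10 and adjusted p = 0.222) with all libraries and −0.31 (with SE 0.06 and adjusted p = 0.000896) without shCtrl replicate 3, both by edgeR's quasi-likelihood test. RPS27A, which is made as a fusion with ubiquitin, was at 241, 235 and 203 CPM in shCtrl and 191, 215 and 204 CPM in shmiR155HG. Its log2 fold change was −0.16 (with SE 0.06 and adjusted p = 0.105) with all libraries and −0.23 (with SE 0.04 and adjusted p = 0.000548) without that one, by the same quasi-likelihood test. For both genes the library left out was the lowest of shCtrl, so the p-values without it are description only. Leaving out shCtrl replicate 1 or 2 instead moved the count the other way, to RPL12 alone, or to RPL12 falling and RPL28 rising. These were 1.3% and 2.6% of members, against 11.6% and 11.2% of all genes called, where all 6 libraries gave 15.3% of all genes. Without shmiR155HG replicate 1, 2 or 3, 2 members passed the threshold each time, against 11.6%, 10.3% and 11.1% of all genes.

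**Figure D5:**
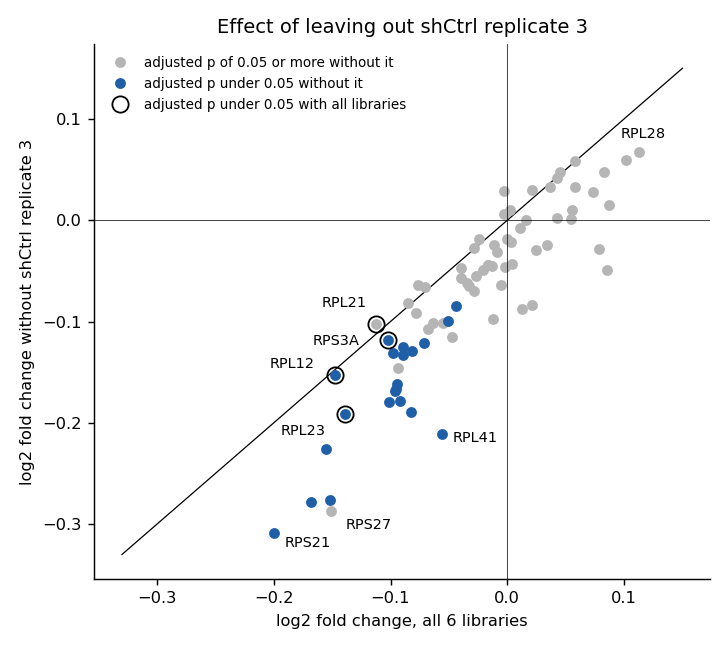
Log2 fold change of the 77 ribosomal protein genes with all 6 libraries (horizontal axis) and without shCtrl replicate 3 (vertical axis), with the line of equal values, blue for an adjusted p under 0.05 without that library and black rings for an adjusted p under 0.05 with all libraries. Most points lie below the line, and 21 are blue where 4 have a ring.

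RPL28, a large-subunit protein found in animals and absent from yeast, had the largest positive difference. It was at 371, 405 and 350 CPM in shCtrl and 400, 391 and 427 CPM in shmiR155HG, with overlap, and its log2 fold change was 0.11 (with SE 0.05 and adjusted p = 0.105 by the quasi-likelihood test). RPS4X, on the X chromosome, was at 760, 751 and 759 CPM in shCtrl and 729, 706 and 728 CPM in shmiR155HG, a log2 fold change of −0.07 (with SE 0.03 and adjusted p = 0.127 by the quasi-likelihood test). Its close copy RPS4Y1, which shares part of the sequence, fell by 0.14 on the log2 scale (with SE 0.04 and adjusted p = 0.00913 by the quasi-likelihood test). How the counting divided reads between these copies is not given in the sources used here.

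RPS4Y1 was the 1 of 10 tested ribosomal protein genes outside the symbol rule that passed the threshold, and the median of the 10 was 0.06. FAU, whose ribosomal protein is cut from a fusion with a ubiquitin-like protein, had a log2 fold change of 0.07 (SE 0.07). RACK1, a scaffold protein on the small subunit, had a log2 fold change of −0.05 (SE 0.03). The paralog genes RPL36AL, RPS27L, RPL39L, RPL26L1, RPL22L1 and RPL7L1 had log2 fold changes of 0.11, 0.06, 0.15, 0.05, −0.01 and −0.06. Their partners RPL36A, RPS27, RPL39, RPL26, RPL22 and RPL7 were at −0.10, −0.15, −0.17, 0.00, −0.07 and −0.04, and of these 12 genes none passed the threshold with all libraries.

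The median log2 fold change was −0.03 for the 46 members with the 5′TOP run at the annotated start and −0.03 for the 16 without it. For the 9 members without the run within 5 bases it was −0.07, with values from −0.10 to 0.08 inside the range of the 46, and none of the 9 passed the threshold. RPL12, RPL21 and RPS3A had the run, and RPL23 had no window in the table. Other mRNAs with a 5′TOP, the translation factors and their like, were 17 genes with a median of −0.02, of which 2 rose and 4 fell. Those with the largest changes were EIF3F, a subunit of an initiation factor, with 0.21 (with SE 0.06 and adjusted p = 0.0145), the filament gene VIM with 0.21 (with SE 0.03 and adjusted p = 7.11e-06) and the histone chaperone gene NAP1L1 with −0.14 (with SE 0.03 and adjusted p = 0.00302), all by the quasi-likelihood test.

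Of 31 tested regulators of mTORC1 and of 5′TOP mRNAs, 2 rose and 2 fell, with a median log2 fold change of 0.06. DDIT4, which encodes the mTORC1 inhibitor REDD1, was at 171, 174 and 173 CPM in shCtrl and 227, 232 and 231 CPM in shmiR155HG. The groups were far apart, and the log2 fold change was 0.41 (with SE 0.04 and adjusted p = 5.51e-09 by edgeR's quasi-likelihood test). EIF4EBP1, a repressor of cap-dependent initiation that mTORC1 inactivates, was at 11.8, 11.0 and 9.78 CPM in shCtrl and 7.48, 8.33 and 8.37 CPM in shmiR155HG, a log2 fold change of −0.43 (with SE 0.15 and adjusted p = 0.0486 by the quasi-likelihood test). PDCD4, a repressor of the helicase eIF4A, had a log2 fold change of 0.25 (with SE 0.09 and adjusted p = 0.0456 by the quasi-likelihood test), with overlap between groups.

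Of 95 ribosome biogenesis factors, 5 rose and 6 fell, with a median of 0.00. GTPBP4, a GTPase of large-subunit assembly, was at 169, 183 and 174 CPM in shCtrl and 138, 128 and 135 CPM in shmiR155HG, and its log2 fold change was −0.39 (with SE 0.04 and adjusted p = 2.75e-07 by edgeR's quasi-likelihood test). SBDS, which helps to release an assembly factor from the new large subunit, was at 92.2, 89.3 and 95.4 CPM in shCtrl and 79.0, 77.2 and 73.6 CPM in shmiR155HG, with a log2 fold change of −0.27 (with SE 0.06 and adjusted p = 0.00107 by the quasi-likelihood test). UTP3, of small-subunit processing, had a log2 fold change of 0.22 (with SE 0.07 and adjusted p = 0.0313 by the quasi-likelihood test). Of the 7 tested chaperones that carry single ribosomal proteins, none passed the threshold (2 at an unadjusted p under 0.05), and their median was 0.03.

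The 78 mitochondrial ribosomal protein genes had a median of −0.01, with MRPS6 (0.19) and MRPS26 (0.18) rising and MRPS27 (−0.18) falling. Of 75 nuclear genes of the respiratory chain, NDUFS8 rose (0.25) and NDUFS1 fell (−0.15), and the median was −0.03. Over all these lists, the share of genes that passed the threshold was 35.3% for other 5′TOP mRNAs, 12.9% for the regulators, 11.6% for biogenesis factors, 3.85% for mitochondrial ribosomal proteins and 2.67% for the respiratory chain, beside the 5.19% of the ribosomal protein genes and the 15.3% of all genes given above. With each of the 6 libraries left out in turn, MRPS26 lost its call in 6 fits, EIF4EBP1 and UTP3 in 5, PDCD4 and NDUFS1 in 4, and EIF3F, MRPS6 and MRPS27 in 2. VIM, NAP1L1, DDIT4, GTPBP4, SBDS, RPS4Y1 and NDUFS8 kept theirs in all 6. Without shCtrl replicate 3, the mitochondrial ribosomal protein genes had 2 that rose and 3 that fell, the respiratory chain 1 and 3.

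Base composition went with the differences between members. Over the 77 genes, the Spearman correlation of the log2 fold change with the GC content of the transcript was 0.42, and with coding length 0.23, as descriptions over genes that share libraries. With an offset of transcript length and GC content for each library, RPL12, RPL7A, RPLP0 and RPS21 fell. Of these 4 members (5.19%, against 14.7% of all genes called in that fit), only RPL12 was among the 4 given above. Of the 77 genes, 5 overlap another gene of the table on the same strand and 32 on the other strand, and whether the counting used the strand is not given in the sources used here.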

How the data were processed

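The authors aligned the reads, pairs of 150 bases, to hg38 with HISAT2, and ran StringTie and prepDE.py3. They deposited whole-number counts per gene for the 6 libraries (3 shCtrl, 3 shmiR155HG), without normalization. The annotation release and the read length set in prepDE.py3 are not given in the sources used here, so a count may stand for less than 1 read.

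In R 4.3.3, the filter of the authors (2 or more libraries above 1 CPM) was applied and libraries were scaled with TMM (factors 0.997 to 1.00). The test was edgeR 4.0.16's quasi-likelihood test with a robust fit and Benjamini-Hochberg adjustment (threshold 0.05). Intervals of 95% come from its standard errors. limma 3.58.1, DESeq2 1.42.0, the study's exact test and other settings (17 alternatives in all) were also run. Methods were tested on simulated data. Positions, lengths and GC content came from GENCODE for hg38 (99.4% of genes matched).

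Named members were those past the threshold, the 3 highest and lowest per kb, the 3 with the smallest difference and, from other lists, up to 3 with the largest change. Other members were named after their values were seen. A few genes are counted but not reported by name here. Members and lists were chosen with earlier results of these data known.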

Additional observations from a re-analysis of the deposited data

How the results depend on the processing

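Over the 17 alternatives, RPL12 kept its direction in all and its side of the threshold in 16, the exception being the rule of the study, which asks for a fold change over 1.2, more than RPL12 showed. The count of 4 members that fell was the same with DESeq2 size factors, total counts, scaling without the ribosomal protein genes, filterByExpr and halved counts. In each of these it was 5.19% of members, against 12.1% to 15.4% of all genes called. Without a filter on low counts 1 member rose and 7 fell (large subunit 1 and 4, small subunit 0 and 3), 10.4% of members against 9% of the genes in that fit. The DESeq2 test and limma-voom each gave 6 that fell (5 of the large subunit). The rule of the study gave 0 in both subunits. Leaving out 1 library gave 0 to 1 members that rose, in the large subunit, and 1 to 21 that fell (large subunit 1 to 13, small subunit 0 to 8), with the highest counts without shCtrl replicate 3. Without shCtrl replicate 3, 27.3% of members passed the threshold, against 14.8% of all genes. Without any other single library it was 1.3% to 2.6% of members, against 10.3% to 11.6% of all genes. The cause of these differences was not tested.

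With the replicate number as a block, 3 members fell (RPL12, RPL23 and RPS27, 2 large and 1 small), with a median log2 fold change of −0.03. They were 3.9% of members, against 14.2% of all genes called in that fit. Same-numbered libraries showed no shared deviation (correlations −0.01, 0.01 and 0.02). With so few libraries per group this cannot exclude that they were handled together, and the labels do not state a pairing.

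Values near 0 changed sign. With the length and GC offset, log2 fold changes were −0.031 for RPS2, 0.014 for RPSA, 0.020 for RPL26 and 0.054 for RPL22L1. RPS2 was at −0.0022 without a filter and −9.8e-05 with filterByExpr. RPSA was at 0.0012 with DESeq2 size factors, 0.0020 with total counts, 0.0012 with the DESeq2 test and 0.00023 with limma-voom. Leaving out 1 library gave −0.0039 to 0.015 for RPS2, −0.083 to 0.11 for RPL37, −0.19 to 0.0052 for RPL37A, −0.044 to 0.019 for RPL27A, −0.018 to 0.015 for RPSA, −0.031 to 0.022 for RPL26, −0.0041 to 0.13 for FAU, −0.066 to 0.22 for RPS27L, −0.080 to 0.079 for RPL22L1 and −0.016 to 0.12 for RPL26L1.

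The medians over the family, the large subunit and the small subunit stayed within 0.1 of 0 under every alternative run. They moved most with the shCtrl library left out. Without shCtrl replicate 3 they were −0.062, −0.065 and −0.049, and without shCtrl replicate 1 they were −0.0071, 0.0035 and −0.0087. The large-subunit median thus changed sign. A member had 861 to 85444 counts in a library, and the common biological coefficient of variation over all genes was 8.71%.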
